A study of Mus musculus with 6 samples.

Results

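Red blood cells are filled with haemoglobin, and a piece of liver holds blood in its vessels. The genes described here are 8 genes of haemoglobin and the red cell in the livers of laboratory and wild house mice (Mus musculus). They were chosen by name: the adult alpha-globin genes Hba-a1 and Hba-a2, the adult beta-globin genes Hbb-bs and Hbb-bt, Alas2, Slc4a1, Epb42 and Bpgm. All 8 were found among the 47232 gene names used, and 7 of them were among the 18619 genes expressed highly enough to be tested. The question put to them was how their levels and their ratios to each other differed between mice of inbred laboratory stock and outbred mice caught in the wild.

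The laboratory group was 3 adult C57BL/6 mice, an inbred strain, from a breeder, all male. The wild group was 3 adult mice that had been live-trapped in New South Wales and then kept under standard husbandry. Of these, mouse 1 was male and mice 2 and 3 were females. Sex was therefore not balanced between the groups. The wild mice were also prepared later than the laboratory mice, so genetic background, life history and time of preparation cannot be told apart. The labels name no transgene and no treatment. Each mouse gave 1 library of stranded messenger RNA, made from frozen, unfixed liver and read as single reads of 100 bases. Expression is given as FPKM, the fragments mapped to a gene scaled to its length and to the size of the library. For tests, it is given as zFPKM, in which log2 FPKM is centred on the mode of all genes in a mouse and scaled by an SD fitted to the same mouse. A difference in zFPKM is the laboratory mean less the wild mean. No counts were used, so how deeply each library was read is unknown. The mode was highest in laboratory mouse 3 and wild mouse 1 (2.12 and 2.51, against 0.491 to 1.77 in the other 4 mice), and both were left out together in an alternative fit. The liver genes Apoa1 and Apoa2, which encode apolipoproteins, had an FPKM of at least 7721 in every mouse.

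Haemoglobin is a tetramer of paired alpha and beta chains, each of which holds a haem group. Red cell precursors in the bone marrow make the chains in near balance, lose their nucleus, and enter the blood as reticulocytes that keep RNA for a short time. Alas2 encodes the erythroid form of aminolevulinate synthase, which starts haem synthesis in these cells. Slc4a1 encodes band 3, the anion exchanger of the red cell membrane, and Epb42 encodes a protein that links band 3 to the membrane skeleton. Bpgm encodes bisphosphoglycerate mutase, whose product lowers the oxygen affinity of haemoglobin. In bulk liver, fewer red cells and less RNA per red cell cannot be told apart.

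The paired globin genes are close copies, which limits how far reads can be assigned to one or the other. On GRCm38.p6, Hba-a1 lies on chromosome 11 from 32283672 to 32284486 and Hba-a2 from 32296492 to 32297310 of the same chromosome. Hbb-bs lies on chromosome 7 from 103826523 to 103827928 and Hbb-bt from 103812524 to 103813923. The coding sequences of Hba-a1 and Hba-a2, each of 429 bases, differed at 1 base, C381T, and those of Hbb-bs and Hbb-bt, each of 444 bases, differed at 1 base, C417T. Positions are counted from 1 at the first base of the coding sequence, with the base of the first-named gene first. Neither difference changes an amino acid. The following windows of 55 bases within exon 3, from GENCODE transcripts on GRCm38, are shown because they hold the single coding base that separates each pair, in capitals.
Hba-a1, chr11:32284316-32284370, plus strand: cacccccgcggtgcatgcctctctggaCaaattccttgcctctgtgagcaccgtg
Hba-a2, chr11:32297133-32297187, plus strand: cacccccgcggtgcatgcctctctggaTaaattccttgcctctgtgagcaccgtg
Hbb-bs, chr7:103826665-103826719, minus strand: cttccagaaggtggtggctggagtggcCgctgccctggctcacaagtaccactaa
Hbb-bt, chr7:103812656-103812710, minus strand: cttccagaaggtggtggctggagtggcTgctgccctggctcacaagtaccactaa
Over whole transcripts, 339 of 600 stretches of 100 bases in Hba-a1 (56.5%) occurred without a mismatch in Hba-a2, and they made up 74.5% of the 455 stretches of Hba-a2. For the beta genes, 331 stretches were shared, 62.6% of those of Hbb-bs and 54.8% of those of Hbb-bt. A read that falls in a shared stretch fits both genes equally well, so the level of each gene within a pair is uncertain. The sum of Hbb-bs and Hbb-bt is uncertain as well, since 2 further beta genes, Hbb-b1 and Hbb-b2, took up to 48.7% of the summed beta FPKM in a mouse.

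The alpha-globin genes were the most abundant of the 8 genes. Hba-a1 stood at 1079, 1854 and 548 FPKM in laboratory mice 1, 2 and 3, against 315, 608 and 489 FPKM in wild mice 1, 2 and 3. Laboratory mice 1 and 2 stood above every wild mouse, and laboratory mouse 3 lay below wild mouse 2, so the groups overlapped in FPKM. The mean was 1160 ± 657 (SD, n = 3) in laboratory and 471 ± 147 (SD, n = 3) in wild mice, a ratio of 2.46 (two-sided exact permutation test of log2 FPKM, p = 0.2).
Hba-a2 stood at 931, 1609 and 463 FPKM in the laboratory group against 217, 333 and 347 FPKM in the wild group. Here every laboratory mouse lay above every wild mouse, with laboratory mouse 3 again the lowest of its group. The mean was 1001 ± 576 (SD, n = 3) against 299 ± 71.7 (SD, n = 3), a ratio of 3.35 (exact two-sided permutation p = 0.1, which is the lowest possible with 3 mice a group). Among all gene names used, the rank of Hba-a1 by FPKM was 35 to 102 in the laboratory group and 138 to 295 in the wild group.

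The beta-globin genes ordered the mice of each group as Hba-a1 did, with larger spread. Hbb-bs stood at 377, 1139 and 204 FPKM in the laboratory group against 122, 455 and 243 FPKM in the wild group. Wild mouse 2 lay above laboratory mice 1 and 3, and the groups overlapped. The mean was 573 ± 497 (SD, n = 3) in laboratory mice against a wild mean of 274 ± 168 (SD, n = 3), a ratio of 2.10 (exact two-sided permutation p = 0.5).
Hbb-bt stood at 171, 494 and 96.7 FPKM in the laboratory group against 58.5, 178 and 113 FPKM in the wild group. The overlap was the same as for Hbb-bs, with wild mouse 2 above laboratory mice 1 and 3. The ratio of the means was 2.18 (two-sided exact permutation test, p = 0.5). The highest laboratory mouse had 5.58 times the Hbb-bs FPKM of the lowest, against 3.38 times for Hba-a1 and 1.42 times for Alas2.

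**Figure D1:**
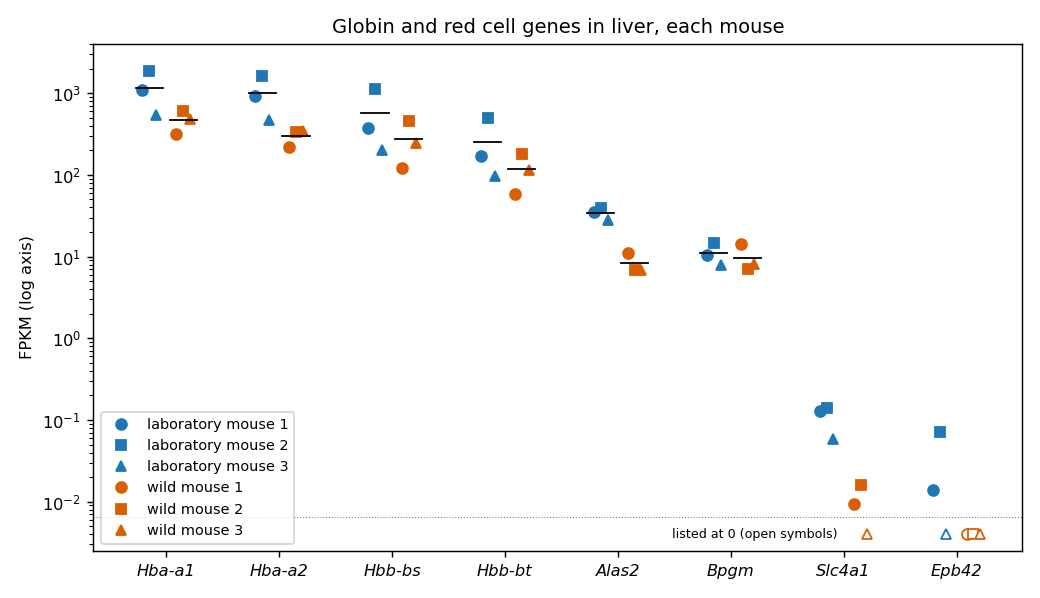
FPKM of the 8 genes on a log axis, with a symbol for each of the 3 laboratory (blue) and 3 wild (orange) mice, a black line at the mean of a group for genes above 0 in every mouse, and open symbols for genes listed at 0. The groups separate for Hba-a2, Alas2 and Slc4a1 and overlap for the other genes, and laboratory mouse 2 has the highest FPKM of every gene.

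Alas2 showed the clearest separation among the genes above 0 in every mouse. It lies on chromosome X from 150547417 to 150570622 and stood at 35.2, 39.3 and 27.7 FPKM in the laboratory group. In the wild mice its FPKM was 11.1, 6.81 and 6.85. The lowest laboratory mouse was well above the highest wild mouse, and the mean of 34.1 ± 5.85 (SD, n = 3) was 4.13 times the wild mean of 8.25 ± 2.47 (SD, n = 3; exact two-sided permutation p = 0.1).
Bpgm, on chromosome 6 from 34476356 to 34505136, stood at 10.5, 14.8 and 7.82 FPKM in the laboratory group against 14.1, 7.05 and 8.02 FPKM in the wild group. The groups covered nearly the same range, with means of 11.0 ± 3.52 and 9.73 ± 3.83 (SD, n = 3 each; two-sided exact permutation test, p = 0.6). Alas2 exceeded Bpgm in every laboratory mouse, and Bpgm exceeded Alas2 in every wild mouse.

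The membrane genes were close to 0. Slc4a1, on chromosome 11 from 102348820 to 102365281, stood at 0.129, 0.140 and 0.0585 FPKM in the laboratory group. In the wild mice it had 0.00946 and 0.0158 and was listed at 0 in wild mouse 3. The values did not overlap, but Cufflinks' lower bound was 0 in each wild mouse, so these levels rest on very few reads. Epb42, on chromosome 2 from 121017891 to 121036877, stood at 0.0141 FPKM in laboratory mouse 1. Its FPKM in laboratory mouse 2 was 0.0704, with a lower bound of 0. Epb42 was listed at 0 in laboratory mouse 3 and in all the wild mice, and it did not pass the filter for the test. No fold is given for either gene.

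In zFPKM, 5 of the 7 tested genes were higher in the laboratory mice at an adjusted p under 0.05 (limma with Benjamini-Hochberg adjustment over all tested genes), and none was lower. Of all 18619 tested genes, 7.17% were called higher and 7.28% lower in the laboratory mice. The 5 genes were the 4 globins and Alas2. Hba-a2 differed by 0.80 ± 0.10 (SE; adjusted p = 2.45e-13), Hba-a1 by 0.66 ± 0.097 (SE; adjusted p = 9.62e-10) and Alas2 by 0.95 ± 0.17 (SE; adjusted p = 4.99e-07). The beta genes differed by 0.56 for Hbb-bs (adjusted p = 4.07e-06) and 0.57 for Hbb-bt (adjusted p = 3.25e-05). These calls leave out Hbb-b1 and Hbb-b2. Summed over all 4 beta genes, FPKM overlapped between the groups, at 334 to 1813 in laboratory and 349 to 708 in wild mice. Slc4a1 differed by 1.19 (adjusted p = 0.0641) and Bpgm by 0.30 (adjusted p = 0.322) and neither was called. The laboratory mice alone were enough for Slc4a1 to pass the filter, and its values in wild mice 1 and 3 were set to -3. Its difference depends on that floor and was 2.00 with a floor of -5, so a call of Slc4a1 in any fit carries no weight. In FPKM, 3 of the 7 tested genes, Slc4a1 among them, had every laboratory mouse above every wild mouse, as did 12.1% of all tested genes.

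The globin calls depended on how the spread was estimated. The fit took the spread of abundant genes from the trend over all genes, and for Hbb-bs it used an SE of 0.11, where the mice of each group alone gave 0.33. For Hba-a1 the same pair of values was 0.097 and 0.19, and for Alas2 it was 0.17 and 0.14. Without the trend, 1 of the 7 genes was called, Alas2 (limma, adjusted p = 0.0451), with Hba-a1 at 0.146 and Hba-a2 at 0.0955. That fit called 443 of all 18619 tested genes higher. Without laboratory mouse 2, or without wild mouse 1, 3 of the 7 were called, and Hbb-bs and Hbb-bt lost their call in both. These fits called 692 and 795 of all 18619 tested genes higher. Without laboratory mouse 3, all 7 were called, including Slc4a1 (difference 1.63, again with wild values at the floor) and Bpgm (difference 0.51). Of all 18619 tested genes, 1643 were then called higher, and the median difference was 0.155. Leaving out both laboratory mouse 3 and wild mouse 1, an alternative added after the data were seen, gave 6 calls and lost that of Hbb-bs (adjusted p = 0.0656). There 2711 of all 18619 tested genes were called higher. With log2(FPKM + 0.1) in place of zFPKM, 3 of the 7 were called higher, against 8.19% of all tested genes, and the median over all tested genes shifted to -0.47. These were Hba-a2, Alas2 and Slc4a1. With sex as a covariate, the difference of Hbb-bs was 0.98, and the median over all tested genes shifted to 0.275. Since a single wild mouse was male, that fit sets the laboratory mice against wild mouse 1 alone. The groups could not be compared within males with replicates, so calls from that fit carry no weight. Every gene kept its direction in every alternative in which it was tested.

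**Figure D2:**
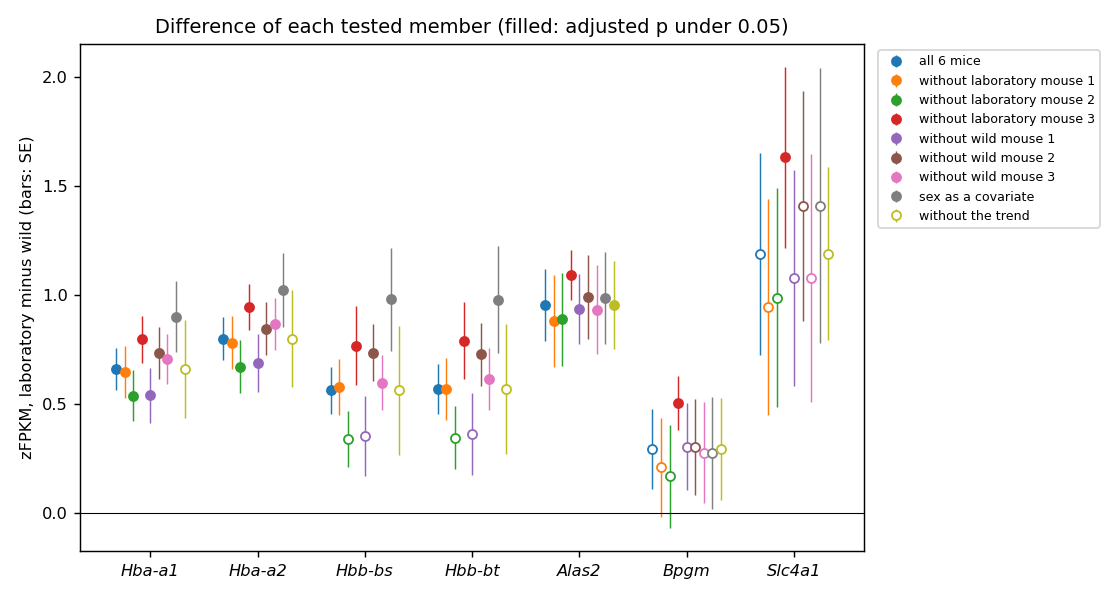
Difference in zFPKM (laboratory minus wild, with the SE of limma) of the 7 tested genes with all 6 mice, without each mouse in turn, with sex as a covariate, and without the trend in the spread, filled where the adjusted p is under 0.05. All points lie above 0, and Hba-a1, Hba-a2 and Alas2 stay filled in every setting shown except that without the trend, where Alas2 alone does.

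The globin transcripts are short, and short transcripts as a group were shifted. Among tested genes whose longest GENCODE transcript had at most 1000 bases, the median difference was 0.15 and 18.7% were called higher in the laboratory mice. This class held all 4 globin genes. For transcripts of over 3000 bases the median was -0.064 and 2.80% were called higher. With the trend on transcript length removed, an alternative added after the data were seen, the differences were 0.58 for Hba-a1 (adjusted p = 0.0577), 0.68 for Hba-a2 (adjusted p = 0.0218), 0.46 for Hbb-bs (adjusted p = 0.0864) and 0.49 for Hbb-bt (adjusted p = 0.0403). Alas2, with a longest transcript of 2037 bases, was at 0.96 (adjusted p = 6.89e-04).

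Ratios within a mouse do not depend on how that mouse was scaled. The ratio of Hba-a1 to Hba-a2 was 1.16, 1.15 and 1.18 in the laboratory group against 1.45, 1.82 and 1.41 in the wild group. It was nearly constant among the laboratory mice and higher in every wild mouse, with means of 1.16 ± 0.016 and 1.56 ± 0.23 (SD, n = 3 each; two-sided exact permutation test, p = 0.1, adjusted over 5 ratios 0.375). Reads in the stretches shared by the pair do not inform this ratio. The ratio of Hbb-bs to Hbb-bt was 2.21, 2.31 and 2.11 in the laboratory group against 2.09, 2.56 and 2.15 in the wild group, and the groups overlapped (exact permutation p = 0.9).
The ratio of the summed alpha genes to Hbb-bs plus Hbb-bt was 3.67, 2.12 and 3.36 in the laboratory group against 2.94, 1.49 and 2.34 in the wild group (exact permutation p = 0.3). The groups overlapped, but not once Hbb-b1 and Hbb-b2 were added to the beta sum, as given with those genes. Mouse 2 of each group had the lowest ratio of alpha to Hbb-bs plus Hbb-bt. It also had the highest sum of the 4 globins, 5095 FPKM in laboratory mouse 2 and 1574 in wild mouse 2. With Hbb-b1 and Hbb-b2 added, wild mouse 3 had the lowest ratio of the wild group, 1.20.

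Alas2 and Bpgm did not keep step with the globins from mouse to mouse. The ratio of Alas2 to the summed 4 globins was 0.0138, 0.00771 and 0.0212 in the laboratory group against 0.0156, 0.00432 and 0.00574 in the wild group. The groups overlapped through wild mouse 1 (exact permutation p = 0.3). The ratio of Bpgm to the globins was 0.00409, 0.00290 and 0.00596 against 0.0198, 0.00448 and 0.00672, with wild mouse 1 far above the rest (exact permutation p = 0.2). The ratio of Alas2 to Bpgm, looked at after the values were seen and so given with no test, was 3.36, 2.66 and 3.55 in the laboratory group against 0.787, 0.965 and 0.854 in the wild group. Ratios of Slc4a1 and Epb42 to the globins were not formed because of the values at 0.

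**Figure D3:**
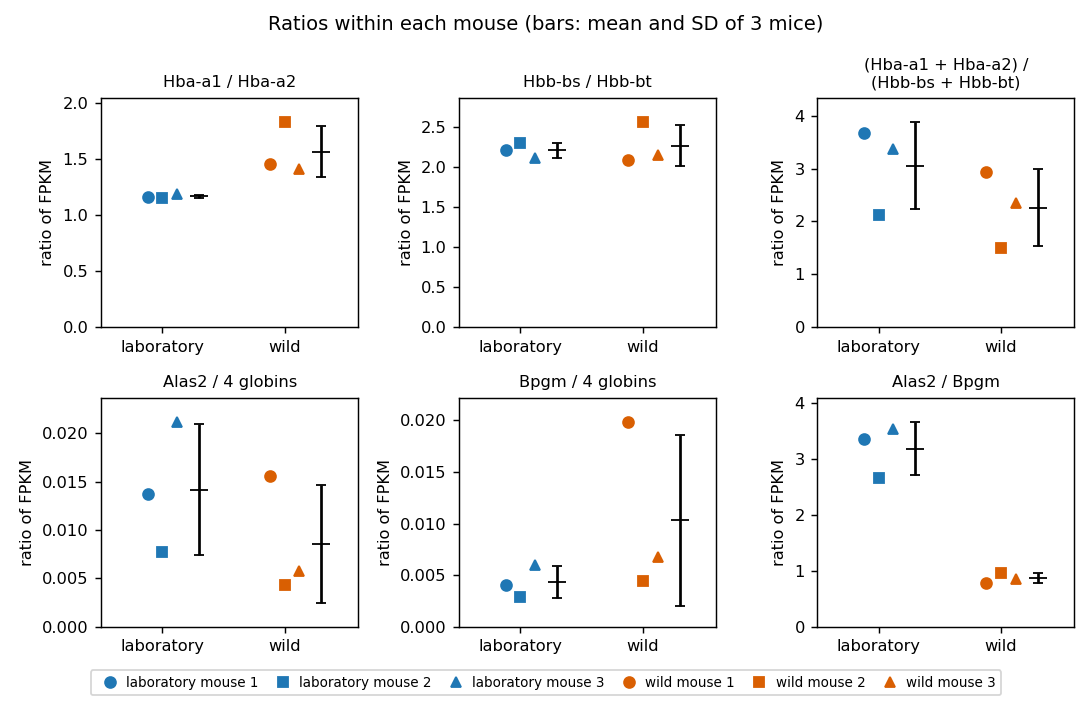
Ratios of FPKM within each mouse on linear axes that start at 0, with a symbol for each laboratory (blue) and wild (orange) mouse and bars for the mean and SD of 3 mice. The groups separate for Hba-a1 to Hba-a2 and for Alas2 to Bpgm and overlap in the other panels.

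The other haemoglobin genes divided the wild mice. Beside Hbb-bs and Hbb-bt, which make up the single haplotype that C57BL/6 carries, mice of the diffuse haplotype carry Hbb-b1 and Hbb-b2, which RefSeq places on an alternate sequence of chromosome 7. Hbb-b1 stood at 62.2, 179 and 33.1 FPKM in the laboratory group against 147, 74.1 and 300.3 FPKM in the wild group (difference in zFPKM -0.14, adjusted p = 0.504). Hbb-b2 stood at 0.562, 1.66 and 0.397 FPKM in the laboratory group against 21.1, 0.866 and 37.8 FPKM in the wild group. Wild mice 1 and 3 were far above the laboratory mice, and wild mouse 2 lay within their range. In the fit over all genes Hbb-b2 was lower in the laboratory mice by -1.08 (adjusted p = 5.91e-04). The call was kept in 4 of 17 alternatives and lost in 13, among them those without laboratory mouse 3 (0.229), wild mouse 1 (0.181) or wild mouse 3 (0.282).

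The ratio of Hbb-b1 to Hbb-bs gave the same division and is a description with no test. It was 0.165, 0.157 and 0.162 in the laboratory group and close to that in wild mouse 2, at 0.163. In wild mice 1 and 3 it was 1.20 and 1.23. Of the summed FPKM of the 4 beta genes, Hbb-b1 and Hbb-b2 together took 10.3%, 9.96% and 10.0% in the laboratory group, and wild mouse 2 was similar at 10.6%. In wild mice 1 and 3 they took 48.2% and 48.7%. Reads that the beta genes share could not be told apart, the labels give no beta-globin haplotype, and the haplotypes of the wild mice were not tested.
The summed FPKM of all 4 beta genes was 610, 1813 and 334 in the laboratory group against 349, 708 and 695 in the wild group. With Hbb-b1 and Hbb-b2 added to the beta sum, a choice made after the data were seen, the alpha to beta ratio was 3.30, 1.91 and 3.02 in the laboratory group against 1.52, 1.33 and 1.20 in the wild group. The groups then no longer overlapped.

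**Figure D4:**
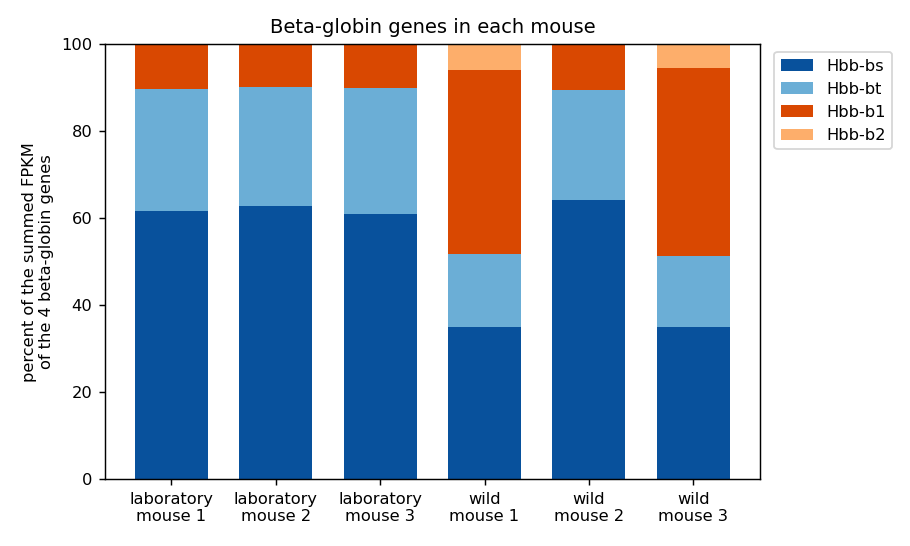
Share of each of 4 beta-globin genes in their summed FPKM (percent), 1 bar for each mouse. Hbb-b1 and Hbb-b2 take 48.2% and 48.7% in wild mice 1 and 3 and between 9.96% and 10.6% in the other mice.

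Of the remaining haemoglobin genes, the embryonic gene Hba-x and the gene Hbb-bh0 were listed at 0 in every mouse. Hbq1a and Hbq1b, which encode theta-like chains, had an FPKM of at most 0.260 and 0.0877 and were not called.

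The promoters of the 4 adult globin genes share short motifs. The last 110 bases before the RefSeq start of each gene on GRCm38.p6 follow, shown because the 4 genes were called in the same direction, with 3 motifs and their reverse complements in capitals. These were the CCAAT box, the CACCC box and the core of the TATA box, written TATAA, all of them textbook elements of globin promoters.
Hba-a1, chr11:32283562-32283671, plus strand: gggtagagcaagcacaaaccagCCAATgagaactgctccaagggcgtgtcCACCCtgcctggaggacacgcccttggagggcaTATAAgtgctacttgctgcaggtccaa
Hba-a2, chr11:32296382-32296491, plus strand: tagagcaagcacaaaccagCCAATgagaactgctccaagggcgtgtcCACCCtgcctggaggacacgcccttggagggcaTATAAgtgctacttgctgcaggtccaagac
Hbb-bs, chr7:103827929-103828038, minus strand: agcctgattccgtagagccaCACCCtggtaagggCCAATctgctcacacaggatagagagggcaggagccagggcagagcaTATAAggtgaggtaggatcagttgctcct
Hbb-bt, chr7:103813924-103814033, minus strand: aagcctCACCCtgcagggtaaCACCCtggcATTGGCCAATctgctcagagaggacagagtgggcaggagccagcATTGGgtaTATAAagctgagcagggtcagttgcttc
The alpha stretches, whose annotated starts differ slightly, shared an unbroken run of 107 bases, whereas the longest run shared by the beta stretches was 14 bases.
In windows of the 250 bases before the start, searched on both strands, all 4 globin genes held each of the 3 motifs, as did 3.28% of 32851 promoters. Singly, CCAAT occurred in 33.8% of promoters, CACCC in 52.0% of them and TATAA in 22.8%. The motif GATAA, the core of the GATA motif, occurred in 6 of the 7 windows and in 22.6% of all promoters. The windows of the 7 genes other than Slc4a1 were found. The Bpgm window held the CCAAT box but neither of the last pair of motifs, and those of Alas2 and Epb42 held that pair but not the CCAAT box. In Hbb-bt a CCAAT motif adjoins a match on the other strand. The 3 motifs were chosen as known elements of globin promoters, so their presence in the 4 globin genes is a description and not a result. A link between the motifs and the calls was not tested. A match describes letters in a window and is not a binding site.

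The other lists of red cell genes held calls in both directions. Of the red cell membrane and skeleton genes, 11 were tested and 1 was called, higher in the laboratory mice. The called gene passed the filter through the laboratory mice alone, so its call carries no weight. The median difference of the list was -0.072, beside 0.0050 over all tested genes. Ank1, which encodes the ankyrin of the red cell membrane, stood at 0.0484, 0.0695 and 0.0293 FPKM in the laboratory group against 0.0152, 0.0263 and 0.0244 FPKM in the wild group and was not called. Gypc, which encodes glycophorin C and is also expressed outside red cells, had an FPKM of 0.499, 0.781 and 0.516 against 4.58, 4.42 and 4.26 (difference in zFPKM -0.78, adjusted p = 0.0523).

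Of the haem synthesis genes, 11 were tested and 2 were called, both lower in the laboratory mice, with a median difference of -0.043 over the list. Hepatocytes express this pathway as well, mainly for cytochromes. Cpox, which encodes coproporphyrinogen oxidase, stood at 8.15, 12.5 and 8.56 FPKM in the laboratory group against 59.2, 44.1 and 43.9 FPKM in the wild group (adjusted p = 0.00382). Fech, which encodes ferrochelatase and inserts the iron, had 11.1, 12.8 and 17.1 against 61.4, 56.9 and 56.9 (adjusted p = 0.0143). For both the groups were far apart and opposite in direction to Alas2. Cpox was called in 14 of 18 alternatives and Fech in 12 of 18. With a mouse left out, Cpox lost its call without wild mouse 3 (0.0572), and Fech without laboratory mouse 2 (0.0529), wild mouse 2 (0.125) or wild mouse 3 (0.138). Alas1, which encodes the form of the enzyme used in all tissues, stood at 21.1, 16.5 and 20.8 FPKM in the laboratory group against 31.7, 42.8 and 104 FPKM in the wild group (adjusted p = 0.311).

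Genes of red cell precursors ranged from 0 to 19.6 FPKM. Of the erythroid regulators and precursor genes, 10 were tested and limma called 0, with 4 at an unadjusted p under 0.05 and a median difference of 0.099. The highest, Zfpm1 and Ldb1, are cofactors that other tissues also express. Hemgn was listed at 0 in every mouse, and Gata1, which encodes the main erythroid transcription factor, was listed at 0 in all mice but wild mouse 3, where its FPKM was 0.0235. Klf1, an erythroid transcription factor, stood at 0.593, 1.11 and 1.65 FPKM in the laboratory group against 3.41, 2.04 and 3.40 FPKM in the wild group (difference in zFPKM -0.27, adjusted p = 0.619). Tfrc, the transferrin receptor that takes up iron, had 0.915, 0.896 and 1.29 against 7.18, 3.02 and 5.60 (difference in zFPKM -0.56, adjusted p = 0.157). Nfe2, a further erythroid transcription factor, had 0.0374, 0.150 and 0.325 against 1.18, 0.740 and 0.443 (difference in zFPKM -0.64, adjusted p = 0.364). None of these 3 genes was called in zFPKM. Lower FPKM in laboratory mice was common: with log2(FPKM + 0.1), 7065 of the 18619 tested genes were called lower in them. Of the 10 tested genes of this list, 6 had a zFPKM difference above 0. Tal1 had the largest, 0.94 (adjusted p = 0.177). Its FPKM was 0.210, 0.199 and 0.343 in the laboratory group against 0.0222, 0.0943 and 0.114 in the wild group. Apart from Zfpm1 and Ldb1, the genes named here were picked after their values were seen.
Of 15 late red cell genes, 2 were called higher and 2 lower, with a median difference of 0.058. Blvrb, a flavin and biliverdin reductase also found in liver, was higher by 0.33 (adjusted p = 0.0359). Its groups overlapped in FPKM, at 145 to 181 in laboratory and 114 to 177 in wild mice, and the call was lost in 12 of 18 alternatives. Isg20, an exonuclease, was higher by 0.76 (adjusted p = 0.0390), a call kept in 10 of 18 alternatives. The antioxidant enzymes catalase (Cat) and glutathione peroxidase (Gpx1), which hepatocytes hold in large amounts, were lower by -0.53 (adjusted p = 5.25e-06) and -0.47 (adjusted p = 1.45e-05), each called in 14 of 18 alternatives.

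Among haemoglobin and haem clearance genes, 1 of 9 was called, with a median difference of 0.015. This was Hp, which encodes haptoglobin, the plasma protein that binds free haemoglobin. Its FPKM was 3089, 3823 and 1578 in the laboratory group against 2184, 2731 and 3228 in the wild group (difference in zFPKM 0.25, adjusted p = 0.0305). The groups overlapped in FPKM, the call was kept in 3 of 18 alternatives, and the difference changed sign in log2(FPKM + 1), log2(FPKM + 0.1) and after quantile normalization. Hpx, which encodes the haem binder hemopexin, had an FPKM of 2721, 2355 and 1082 against 1966, 2516 and 1915 (adjusted p = 0.117).

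Other blood cells were measured beside the globins. Of the platelet genes, 2 of 8 tested were called higher, Gp9 (difference 1.39), which kept its call in 8 of 17 alternatives, and Gp6. Gp9 was listed at 0 in wild mice 1 and 3, and both values were set to the floor of -3. The laboratory mice alone were enough for Gp9 to pass the filter, so its call carries no weight. Gp6 passed the filter through the laboratory mice alone, so its call and the list's median carry no weight. Of the neutrophil genes, 2 of 8 were called higher, S100a8 (adjusted p = 0.00219) and S100a9 (adjusted p = 0.00152), with these calls kept in 13 and 14 of 18 alternatives. Lcn2, which hepatocytes also make, was called lower by -0.45. Its call was kept in 4 of 18 alternatives, and its direction turned with sex as a covariate. Of the lymphocyte genes, 2 of 12 were called higher, among them the B cell gene Cd79b (difference 1.06), called in 11 of 18 alternatives.
The median difference was 0.51 over the platelet, 0.70 over the neutrophil and 0.41 over the lymphocyte genes. The summed FPKM of these lists overlapped between the groups. It was 4.70 to 5.00 in laboratory and 1.77 to 8.54 in wild mice for platelet genes. For neutrophil genes it was 12.1 to 32.2 and 7.40 to 127, and for lymphocyte genes 6.36 to 7.22 and 2.51 to 8.52. The overlap of the neutrophil sums rested on Lcn2, at 74.7 and 124 FPKM in wild mice 2 and 3. Without it, a choice made after the data were seen, the neutrophil sum was 9.02 to 15.2 in the laboratory group against 2.39 to 3.77 in the wild group. Every laboratory mouse then lay above every wild mouse, as in 12.1% of all tested genes taken singly. Most of that sum in each mouse came from S100a8 and S100a9, the genes already called. The summed globins ran from 1312 to 5095 within the laboratory mice. The neutrophil gene Ly6g was at 0 in every mouse. The part of blood left in the tissue in the globin differences was not tested.

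**Figure D5:**
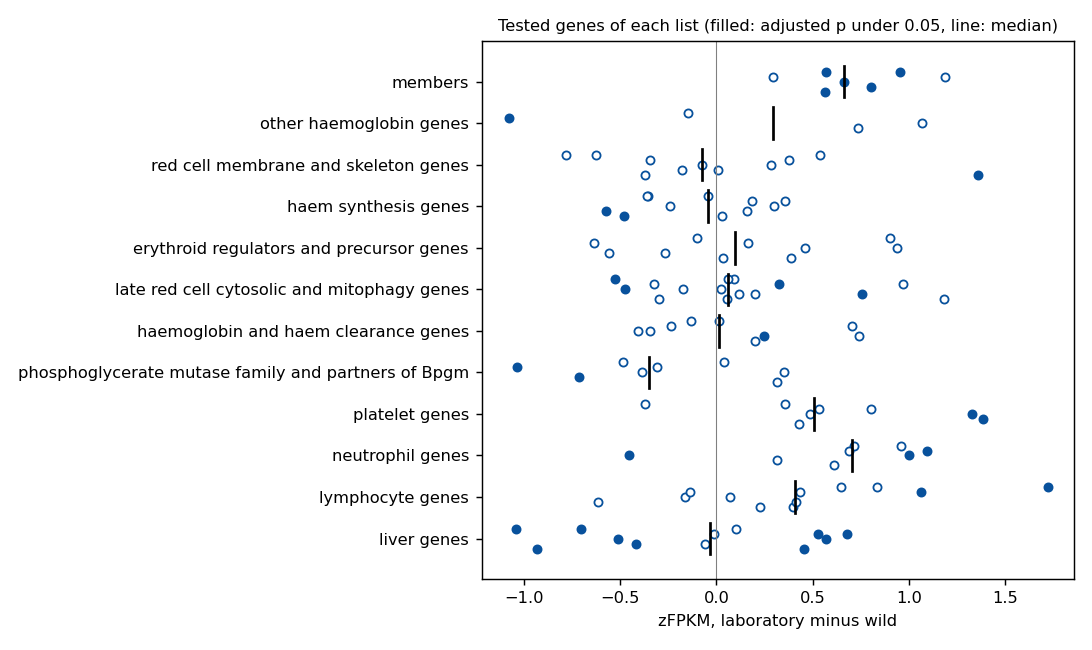
Difference in zFPKM (laboratory minus wild) of each tested gene, by list, with filled symbols for an adjusted p under 0.05 and a line at the median of each list. The 7 tested globin and red cell genes all lie above 0, as do 9391 of all 18619 tested genes. Slc4a1 was set to the floor in wild mice 1 and 3. The medians of the membrane, haem synthesis, precursor, late red cell and clearance lists lie between -0.072 and 0.099. Those of the platelet, neutrophil and lymphocyte lists are 0.51, 0.70 and 0.41, and that of the platelet list carries no weight.

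The pattern of the globins over the 6 mice was compared with that of every other tested gene, as the root mean square difference between a gene's centred zFPKM and the mean centred zFPKM of the 4 globins. The globins themselves lay at 0.071 to 0.11, Alas2 at 0.24, Bpgm at 0.26 and Slc4a1 at 0.43, beside a median of 0.42 over all tested genes other than the 7. The 5 nearest genes were Gm9001 (0.053), Nrxn3 (0.063), Gm6977 (0.071), Gpr19 (0.075) and Plxdc2 (0.080). All were far less abundant than the globins, with an FPKM of at most 3.24 in any mouse, and none is on the lists of blood cell genes. Nrxn3 was near 0, at 0.0116 to 0.0640 FPKM. In FPKM, each of the 5 stood higher in laboratory mouse 3 than in laboratory mouse 1. Every globin was lower in laboratory mouse 3 than in laboratory mouse 1. The likeness therefore holds in zFPKM, which is scaled within each mouse, and not in FPKM.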

How the data were processed

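Liver RNA-Seq of 3 laboratory and 3 wild mice was used, grouped by the strain in the labels and numbered in accession order. The authors aligned reads with kalign to masked GRCm38.p6, made FPKM with the Tuxedo pipeline and a score, zFPKM, with the R package zFPKM. The deposited FPKM and the deposited zFPKM score were used as given, and Cufflinks' bounds (5 mice) only to mark values near 0. Counts and the study's edgeR test were not used.

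Of 47256 gene names listed once in every mouse, 24 marked as failed in any of 5 mice were dropped. The 8 genes were not among them, and laboratory mouse 1 has no such marks. Genes above a zFPKM of -3 in at least 3 mice were tested, lower values set to -3, with limma 3.58.1 in R 4.3.3 (eBayes with trend, Benjamini-Hochberg, adjusted p under 0.05). The procedure was tested on simulated data. For single genes and ratios, log2 values were permuted between the groups (exact, two-sided, scipy 1.17.1). Alternatives were other floors, filters, pseudocounts (1 and 0.1) and scalings, no trend, sex as a covariate, and each mouse left out.

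The genes and lists were chosen with earlier results of these data known. All 8 genes were named, with genes of the haemoglobin, membrane and haem synthesis lists, the 2 highest and the called genes of other lists, and the 5 nearest in pattern. Sequences came from RefSeq (7 of 8 promoters matched) and GENCODE on GRCm38. Starts in the files count from 0, and 1 was added. A called gene of the membrane list and one of the lymphocyte list are not reported here.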

Additional observations from a re-analysis of the deposited data

How the results depend on the processing

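All 125 alternative values of the 7 tested genes kept their direction, 84 kept their side of the threshold, 30 lost a call and 11 gained one. Of the 7 genes, 5 were called in the reported fit. The number called was 3 with a floor of -5, with log2(FPKM + 1) and with log2(FPKM + 0.1), 1 without the trend, and 3 to 7 with a mouse left out. Without a filter, with 47232 genes tested, limma called 0 of 8, and 3 of 8 had an unadjusted p under 0.05, against 6 of 7 in the reported fit.
Over all tested genes, 2690 were called (49.6% of them higher). The count was 23 without a filter, 8242 (16.8% higher) with log2(FPKM + 1), 8589 (17.7%) with log2(FPKM + 0.1), 8817 (60.7%) with its median set to 0 and 5270 with the median of zFPKM set to 0. It was 7282 after quantile normalization, 795 without the trend, 1374 (81.9%) with sex as a covariate and 1420 to 2556 (37.6% to 64.3%) with a mouse left out. The median shifted to -0.195 with log2(FPKM + 1). After the data were seen, 4946 were called with the length trend removed and 5676 without laboratory mouse 3 and wild mouse 1. The cause of these changes was not tested.
The log2 ratio of Hbb-bs to Hbb-bt differed by -0.033, and by -0.087 to 0.057 with a mouse left out. It turned without wild mouse 2. The other ratios kept their direction in every alternative run. With 3 mice a group, no permutation p can fall below 0.1, and the depth of the libraries is unknown. No paired analysis was possible because the replicate numbers only name the mice.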

Other observations

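The forms of aminolevulinate synthase changed places between the groups. The ratio of Alas2, the erythroid form, to Alas1, the form of all tissues, was 1.67, 2.38 and 1.33 in the laboratory group against 0.351, 0.159 and 0.0661 in the wild group. It was chosen after the values were seen and has no test.

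Among the glycolytic enzymes around Bpgm, 2 of 8 tested were called, both lower in the laboratory mice, and the median difference in zFPKM was -0.35. Pgk1, which encodes phosphoglycerate kinase, stood at 12.2, 15.8 and 9.68 FPKM in the laboratory group against 177, 161 and 136 FPKM in the wild group (limma, adjusted p = 1.33e-11). Pgam1, which encodes the phosphoglycerate mutase of most tissues, had 11.4, 17.2 and 10.8 against 123, 84.99 and 60.9 (adjusted p = 3.17e-05). The FPKM of Bpgm was just below that of Pgam1 in each laboratory mouse and far below it in each wild mouse. Pklr, the liver pyruvate kinase, had 39.4, 53.0 and 90.0 against 44.9, 48.2 and 53.8 (adjusted p = 0.0593).

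Of the liver genes, 4 of 12 tested were called higher and 5 lower. Ttr, Apoa1, Apoa2 and Serpina1a were higher, the first 3 with a sign that turned after quantile normalization. Apob, Fga, Fgg, Cyp2e1 and Tat were lower, a direction kept under every alternative run.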
